A study of Mus musculus with 2 samples.

Results

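The sphingolipid synthesis and breakdown genes are 37 mouse genes that encode the enzymes making ceramide from serine and a fatty acyl-CoA, those converting ceramide into sphingomyelin, glycosphingolipids and ceramide 1-phosphate, and those degrading it to sphingosine and sphingosine 1-phosphate, with the regulators of the first enzyme. The list was drawn up with the array values known, since some of its genes had been selected on their large ratio in this very comparison, so that all its ratios are given as a description and without a test. Of the 37 genes, 36 had probes on the array under their symbol, out of 29895 genes with values. Cers1 was the symbol without a probe. These 36 genes were covered by 46 probes, and 35 of them were well above background, against 21371 of all genes.

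Sphingolipids are membrane lipids built on a long-chain base. Serine palmitoyltransferase starts the pathway in the endoplasmic reticulum, and reduction, N-acylation and desaturation then yield ceramide, from which the complex lipids are made. Sphingolipids are known as components of lipid rafts, of myelin and of the water barrier of the epidermis, and the apical membrane of the superficial cells (S cells) of the urothelium is rich in them.

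The samples were pools of ureters from NMRI mouse embryos at embryonic stage E16.5, sorted by sex and compared on 2 dual-colour arrays. One RNA on each array came from controls with the genotype Pparg(fl/?), littermates without the cre transgene per the study's methods, and the other from Pparg-cKO embryos with the genotype Pax2-cre/+; Pparg(fl/fl), in which cre is active in the nephric duct and its derivatives, the ureteric epithelium and the collecting ducts. The floxed allele thus occurs in both groups, and its recombination leaves a truncated Pparg transcript. Array 1 held female pools and array 2 male pools, so n = 2 arrays, and each value stands for a pool and not for an animal. As the dyes were swapped along with the sex, these cannot be told apart. One stage label of the mutant RNA gives E14.5, whereas the titles and protocols give E16.5. The spread between these pools may be partly technical.

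The dyes given in the labels oppose the direction in which the study reads its arrays. The RNAs are therefore called RNA A, in the red channel on array 1 and in the green channel on array 2, and RNA B, the other. RNA A is the control by the dye labels. It is Pparg-cKO under the direction of the study's text and by the sample titles, read with the deposited fold values. The study's RNA in situ hybridisation of fetal ureters found Krt20, Upk1a, Upk3b, Sptssb and Fa2h reduced or absent in the mutant. Each of these genes was dimmer in RNA A on both arrays, which is the direction of the study's text and not of the dye labels. All ratios below are log2 of RNA A over RNA B, signals are given as RNA A against RNA B, and no genotype is attached to a direction. Pparg itself had signals of 11295 against 7430 in the female pools and 12888 against 7872 in the male pools (mean log2 ratio 0.66 ± 0.08, SD, n = 2). The place of its probe relative to the deleted exons was not established here, so that it does not check the labels.

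Between 70.4% and 80.4% of probe spots were well above background in a channel. Over all 21371 genes well above background the median of the mean log2 ratio was 0.01, and 39.0% of genes had the same sign on both arrays. A gene counted as passing the filter when the RNAs differed by 1.5-fold or more, with one sign, on each of the arrays and it had a processed signal (background-subtracted, dye-normalised spot brightness) of at least 100 in its brighter RNA on both. Levels of different probes are not compared, as probes differ in their brightness per transcript. In RNA from whole ureters, fewer cells of a type and less RNA per cell cannot be told apart.

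Of the 36 members on the array, 3 passed the filter with the brighter signal in RNA B, namely Sptssb, Fa2h and Degs2, where 0.231% of all 29895 genes passed in that direction. None passed with the brighter signal in RNA A (0.157% of all genes), and none was past the thresholds in opposite directions on the arrays (0.432% of all genes). Because ratios of this comparison chose members of the list, nothing is read from these counts. Sgms2 was past 1.5-fold on both arrays in the direction of RNA A, at signals under 100. The remaining 31 members well above background all had a mean log2 ratio between −0.4 and 0.4. The median of the mean log2 ratio over the 35 members well above background was 0.032, with quartiles at −0.15 and 0.11, beside quartiles of −0.10 and 0.10 over all genes.

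**Figure D1:**
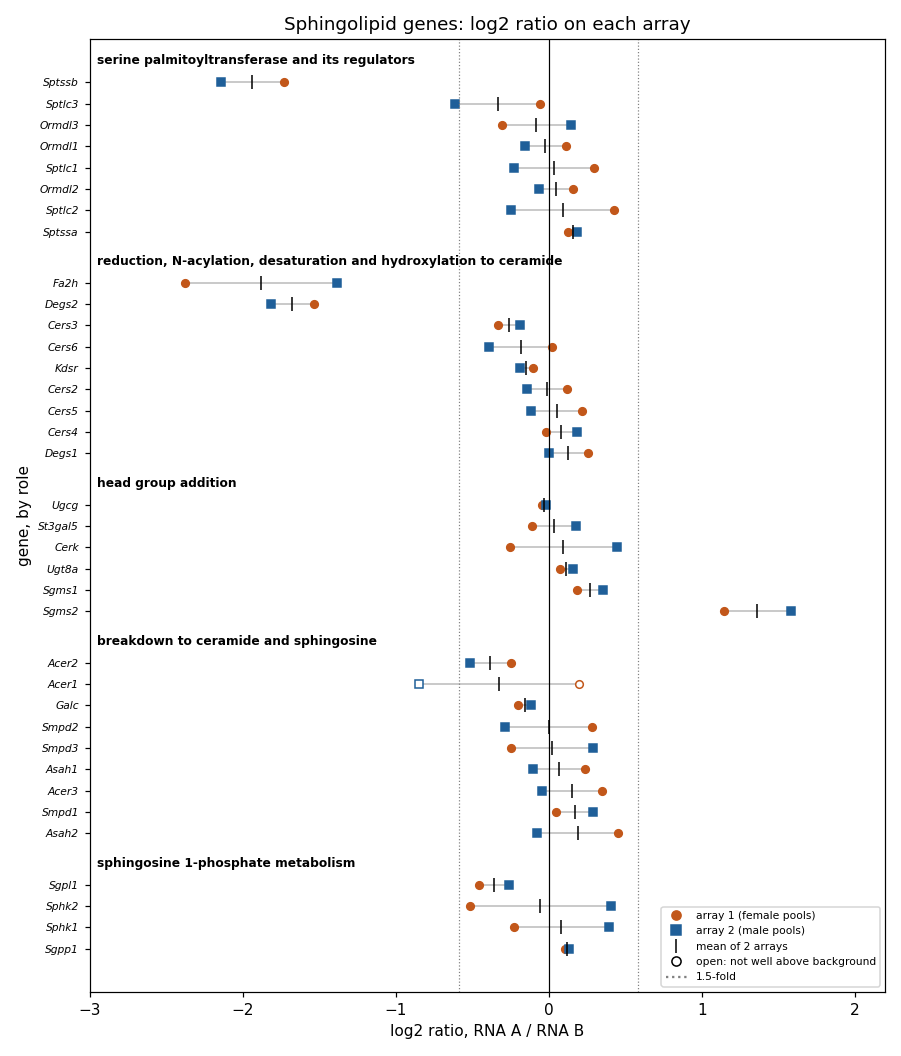
Log2 ratio of RNA A over RNA B (x axis) for each of the 36 members (y axis, by role), with a circle for array 1, a square for array 2 and a tick for their mean; open symbols mark Acer1, which was not well above background, and dotted lines mark 1.5-fold. Sptssb, Fa2h and Degs2 lie left of the dotted line on both arrays, Sgms2 lies right of it on both, and all other members well above background have means between −0.4 and 0.4.

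Serine palmitoyltransferase condenses serine with palmitoyl-CoA and is rate-limiting for the pathway. Sptssb encodes one of its 2 alternative small subunits, which raise the activity of the enzyme and widen its choice of acyl-CoA. The Sptssb signal was 396 against 1316 in the female pools and 401 against 1766 in the male pools. Both values of RNA B lay above both of RNA A, by 3.32-fold in the female and 4.40-fold in the male pools. The mean log2 ratio was −1.94 ± 0.29 (SD, n = 2), and 10 of the 21371 genes well above background had a lower one. The 4 spots of the probe varied by 0.07 (SD of the log2 ratio) on array 1 and 0.03 on array 2. The probe lies on chromosome 3, at 69624024 to 69624083 of mm9, on the minus strand.

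Sptssa encodes the other small subunit. Its signals were 9402 against 8603 in the female and 9873 against 8671 in the male pools. Its log2 ratios of 0.13 and 0.19 were small and had the opposite sign to those of Sptssb. Within the arrays, the log2 ratio of Sptssb was apart from that of Sptssa by −1.86 on array 1 and −2.33 on array 2, so the paralogs shifted unequally.

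The large subunits are encoded by Sptlc1, Sptlc2 and Sptlc3. Sptlc1, the subunit common to all forms of the enzyme, had signals of 2090 against 1705 in the female pools and 1693 against 1984 in the male pools. Sptlc2 had signals of 1769 against 1314 in the female and 1389 against 1646 in the male pools. Both thus favoured RNA A in the female and RNA B in the male pools, with mean log2 ratios of 0.03 ± 0.37 and 0.09 ± 0.48. A dimmer Sptlc2 probe gave 0.19 and 0.05, so its probes had opposite signs in the male pools. Sptlc3, whose product accepts other chain lengths, had signals of 373 against 388 in the female and 292 against 446 in the male pools, and a mean log2 ratio of −0.33 ± 0.39. Its difference rested on array 2, where the log2 ratio was −0.61 against −0.06 on array 1. A dimmer probe of Sptlc3 gave −0.38 and −0.06 on the same arrays.

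Ormdl1, Ormdl2 and Ormdl3 encode membrane proteins that hold serine palmitoyltransferase in check when ceramide is plentiful. Their mean log2 ratios were −0.022 ± 0.19, 0.048 ± 0.16 and −0.082 ± 0.32. Each had opposite signs on the arrays, and a dimmer Ormdl2 probe had the reverse signs (−0.09 and 0.31). Of the 8 genes of the serine palmitoyltransferase group, 3 had the same sign on both arrays, and the group's median was 0.01.

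The RefSeq start-site windows of Sptssb and Sptssa are shown because these paralogs shifted unequally. Each window runs from 250 bases before to 50 bases after the annotated transcription start (GRCm38.p6, minus strand in both), and capitals mark CG dinucleotides. The Sptssb window is chr3:69859845-69860144 and the Sptssa window is chr12:54656523-54656822.
Sptssb: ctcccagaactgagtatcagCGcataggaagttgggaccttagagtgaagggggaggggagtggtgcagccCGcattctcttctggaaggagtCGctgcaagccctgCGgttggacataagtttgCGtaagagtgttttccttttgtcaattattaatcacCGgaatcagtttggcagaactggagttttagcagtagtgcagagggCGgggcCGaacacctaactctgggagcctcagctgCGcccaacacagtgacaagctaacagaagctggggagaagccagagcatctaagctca
Sptssa: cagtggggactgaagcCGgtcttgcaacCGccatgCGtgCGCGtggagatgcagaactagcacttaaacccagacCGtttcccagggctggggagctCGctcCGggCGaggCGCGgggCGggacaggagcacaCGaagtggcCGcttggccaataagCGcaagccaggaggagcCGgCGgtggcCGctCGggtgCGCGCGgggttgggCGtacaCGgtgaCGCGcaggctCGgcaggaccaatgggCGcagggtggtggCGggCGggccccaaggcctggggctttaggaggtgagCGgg
The Sptssb window held 9 CG dinucleotides at 52.7% G and C, and the Sptssa window held 31 at 70.0%. The median over all 32851 windows of that table was 7, at 52.7%.

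The next group takes the ketone product of serine palmitoyltransferase to ceramide. Its last steps held both other genes past the filter. Degs2 encodes the dihydroceramide desaturase that also acts as a hydroxylase and so makes phytoceramides. The Degs2 signal was 299.7 against 869 in the female pools and 337 against 1186 in the male pools. RNA B was brighter by 2.90-fold and 3.52-fold, with no overlap between the RNAs. The mean log2 ratio was −1.68 ± 0.20, and 21 genes had a lower one. The Degs2 probe lies on chromosome 12, at 109928501 to 109928560 of mm9, on the minus strand.

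Degs1 encodes the general dihydroceramide desaturase. It had signals of 8448 against 7086 in the female pools and 7479 against 7486 in the male pools. Its log2 ratio was 0.25 on array 1 and lay at 0 to 2 decimals on array 2. The Degs2 log2 ratio differed from that of Degs1 by −1.79 and −1.81 on the 2 arrays.

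The windows of this pair of desaturases are chr12:108702257-108702556 for Degs2 and chr1:182282146-182282445 for Degs1, both on the minus strand, with CG dinucleotides again in capitals.
Degs2: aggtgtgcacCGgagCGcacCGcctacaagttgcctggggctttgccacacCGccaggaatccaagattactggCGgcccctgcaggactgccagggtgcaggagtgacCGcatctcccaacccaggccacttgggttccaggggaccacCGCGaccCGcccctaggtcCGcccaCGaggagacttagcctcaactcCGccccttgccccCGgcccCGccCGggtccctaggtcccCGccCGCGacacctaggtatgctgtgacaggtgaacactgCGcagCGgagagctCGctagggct
Degs1: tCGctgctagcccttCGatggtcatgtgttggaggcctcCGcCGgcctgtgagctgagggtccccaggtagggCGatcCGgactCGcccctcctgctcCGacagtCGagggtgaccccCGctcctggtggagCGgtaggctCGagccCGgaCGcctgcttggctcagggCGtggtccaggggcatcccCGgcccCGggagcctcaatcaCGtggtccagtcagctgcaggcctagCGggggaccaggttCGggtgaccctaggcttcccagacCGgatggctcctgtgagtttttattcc
Here both windows held 21 CG dinucleotides, at 67.7% G and C for Degs2 and 67.3% for Degs1. The windows of Degs2 and Degs1 were alike in this measure, and those of Sptssb and Sptssa were not. A relation of this measure to the ratios was not tested.

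Windows were found for 33 of the 36 members, 48 windows in all, and not for Fa2h, Asah1 and Smpd3, which were not searched. Each was searched on both strands for AGGTCA, the half-site to which PPARG and its partner RXR bind as a direct repeat, and for the same letters repeated after 1 base, whose matches also count as half-sites. The half-site occurred in 11 of the 48 member windows (22.9%) and in 16.3% of all windows. Its windows belonged to Cers2, Cers3, Sgms1, Sgms2, Smpd1, Sphk1, Cerk and Asah2, and those of Sptssb and Degs2 held none. Sgms1, Sgms2 and Sphk1 had more than 1 of these windows. Those of Sphk1 overlap, so that 1 site can count in both, and the windows are not independent. The direct repeat was in none of the member windows and in 0.04% of all windows. A match of letters is a description and not a binding site, and sites outside these windows were not searched.

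Fa2h encodes the fatty acid hydroxylase that puts a hydroxyl group next to the carboxyl carbon, giving the hydroxylated sphingolipids of myelin and epidermis. The Fa2h signal was 164 against 851 in the female pools and 274 against 716 in the male pools. RNA B was brighter by 5.19-fold on the array of female pools and by 2.61-fold on that of male pools. The mean log2 ratio was −1.88 ± 0.70, with 12 genes below it, and the spread between arrays was the widest of the 3 genes past the filter, while the spots within an array varied by 0.02 and 0.03. The Fa2h probe lies on chromosome 8, at 113869096 to 113869155 of mm9, on the minus strand.

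The other enzymes on the way to ceramide differed little. Kdsr, the reductase that follows serine palmitoyltransferase, had log2 ratios of −0.11 and −0.19 on the arrays (mean −0.15 ± 0.06). The ceramide synthases join a fatty acid to the long-chain base, each with its own preference for chain length. Cers5 had signals of 5232 against 4492 in the female pools and 4870 against 5279 in the male pools. Cers3, the synthase for the ultra-long chains of the epidermis, had signals of 3005 against 3779 in the female and 3261 against 3719 in the male pools, with a mean log2 ratio of −0.26 ± 0.10. A dimmer Cers3 probe gave 0.11 and −0.58, so its probes had opposite signs on array 1. Cers2, which makes very long chain ceramides, and Cers4, Cers5 and Cers6 had means of −0.01, 0.08, 0.05 and −0.18. In this group 4 of 9 members had the same sign on both arrays, and the median was −0.15.

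**Figure D2:**
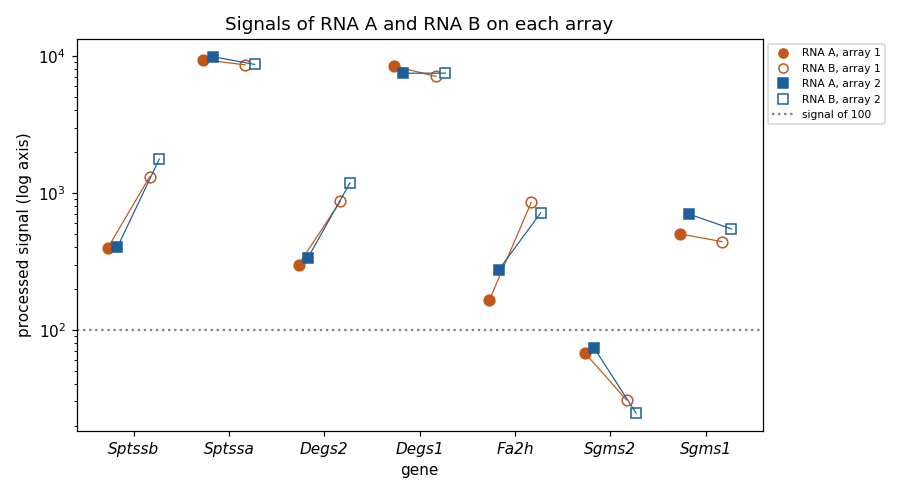
Processed signals (y axis, log scale) of the members past 1.5-fold on both arrays and of the paralogs of 3 of them (x axis); filled symbols are RNA A, open symbols RNA B, circles array 1 and squares array 2, lines join the RNAs of an array and the dotted line is the signal of 100. Sptssb, Degs2 and Fa2h rise from RNA A to RNA B on both arrays, Sgms2 falls and lies below the dotted line, and Sptssa, Degs1 and Sgms1 stay close to level; heights of different genes are not comparable.

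Among the genes that add a head group to ceramide, Sgms2 was the exception. It encodes the sphingomyelin synthase of the plasma membrane. Its signal was 68.2 against 30.8 in the female pools and 73.8 against 24.7 in the male pools. RNA A was brighter by 2.22-fold and 2.99-fold without overlap, and the probe was well above background in both RNAs. The mean log2 ratio was 1.36 ± 0.31, and 22 genes had a higher one. The Sgms2 probe lies on chromosome 3, at 131025871 to 131025930 of mm9, on the minus strand.

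Sgms1 encodes the Golgi enzyme for the same reaction. Its signals were 502 against 441 in the female and 699 against 546 in the male pools, with a mean log2 ratio of 0.27 ± 0.12. The other Sgms1 probe went apart from this on array 1, with log2 ratios of −0.54 and 0.52. The log2 ratio of Sgms2 exceeded that of Sgms1 by 0.96 on array 1 and by 1.22 on array 2.

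Ugcg, which makes glucosylceramide and so opens the way to most glycosphingolipids, had signals of 2375 against 2452 in the female pools and 2273 against 2298 in the male pools. The RNAs were nearly equal, with a mean log2 ratio of −0.03 ± 0.02. Ugt8a, which makes galactosylceramide, a main glycolipid of myelin, had 213 against 202 in the female and 196 against 176 in the male pools, a mean of 0.11 ± 0.06. St3gal5, the synthase of ganglioside GM3, had a mean of 0.03 ± 0.21. Cerk, which phosphorylates ceramide, had log2 ratios of −0.25 on array 1 and 0.44 on array 2, and a dimmer Cerk probe had the reverse signs (0.17 and −0.11). In all, 4 of the 6 genes had the same sign on both arrays, and the median of the group was 0.11.

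All 8 breakdown genes well above background stayed under 1.5-fold on both arrays, as did 87.4% of all genes so measured. Their log2 ratios ran from −0.52 to 0.45. Smpd1 encodes the acid sphingomyelinase of the lysosome and had a mean log2 ratio of 0.17 ± 0.17. Smpd2 and Smpd3, neutral sphingomyelinases, had opposite signs on the arrays, with log2 ratios of 0.28 and −0.29 for Smpd2 and of −0.25 and 0.29 for Smpd3. Asah1, the lysosomal ceramidase, had signals of 4708 against 3998 in the female pools and 4139 against 4439 in the male pools. Asah2, the neutral ceramidase, had the highest mean of the group at 0.19 ± 0.37, with 306 against 224 in the female and 244 against 257 in the male pools. By these probes each ceramidase favoured RNA A in the female and RNA B in the male pools. The other Asah1 probe had the same signs (0.55 and −0.25), whereas a dimmer Asah2 probe gave 0.01 and 0.18.

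Acer2, the alkaline ceramidase of the Golgi, had the lowest mean of the breakdown genes. Its signal was 57.8 against 68.5 in the female pools and 62.7 against 89.7 in the male pools (mean log2 ratio −0.38 ± 0.19). By this probe Acer2 was dimmer in RNA A on both arrays, by less than 1.5-fold, and it did not pass the filter. Its other, dimmer probe gave −0.46 and −0.72 on the arrays, with the same sign. Acer3, the family member of broad expression, had a mean of 0.15 ± 0.28. Acer1, known from the epidermis, was not well above background, with signals of 5.33 against 4.64 in the female and 1.08 against 1.94 in the male pools, and no ratio is read from it. Galc, which removes galactose from galactosylceramide, had signals of 75.5 against 86.7 in the female and 70.2 against 76.0 in the male pools (mean −0.16 ± 0.06).

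Sphingosine 1-phosphate, the signalling lipid at the end of the pathway, is made by the kinases Sphk1 and Sphk2, dephosphorylated by Sgpp1 and cleaved irreversibly by Sgpl1. Sphk2 showed the widest disagreement between the arrays among the members well above background other than Fa2h. Its signal was 731 against 1046 in the female pools and 1291 against 972 in the male pools, log2 ratios of −0.52 and 0.41. Sphk1 had the same order of signs, −0.23 and 0.39. By these probes both kinases were brighter in the green channel of either array, which is RNA B of the female and RNA A of the male pools. A dimmer Sphk1 probe gave 0.01 and 0.26 and so did not share the sign in the female pools. Sgpl1 had signals of 5718 against 7847 in the female and 6111 against 7316 in the male pools, and was dimmer in RNA A on both (mean −0.36 ± 0.14). Sgpp1 had 2281 against 2123 in the female and 2469 against 2252 in the male pools, a mean of 0.12 ± 0.02.

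Over the 35 members well above background, 16 had the same sign on both arrays, 10 toward RNA B and 6 toward RNA A, where all genes gave 3725 and 4608. Their share of 45.7% stands beside 39.0% of all genes. Without the 4 genes past 1.5-fold on both arrays, 12 of 31 had the same sign (38.7%). Of the 19 with opposite signs, 12 were brighter in the red and 7 in the green channel of both arrays, where the 13038 such genes overall split into 6065 and 6973.

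**Figure D3:**
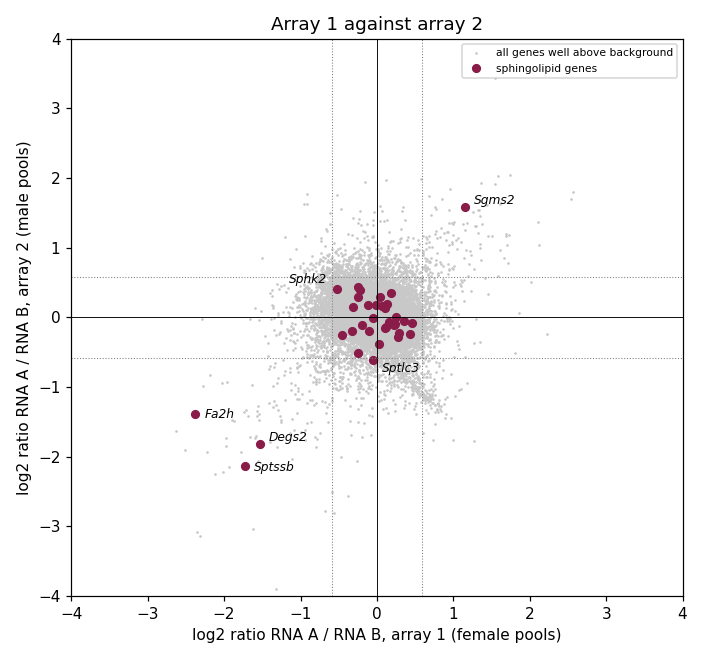
Log2 ratio of RNA A over RNA B on array 1 (x axis, female pools) against array 2 (y axis, male pools) for all genes well above background (grey; 2 genes lie outside the axes) and the 35 members well above background (dark red), with dotted lines at 1.5-fold. Sptssb, Degs2 and Fa2h lie in the lower left corner and Sgms2 in the upper right, while the other members lie within the central cloud.

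The markers of urothelium and of ureteric smooth muscle were all well above background, as the labelled tissue calls for. All 7 S cell markers, among them the uroplakins, were dimmer in RNA A on both arrays (median of their log2 ratios −0.70), and the summed signal of the list was 50970 against 82796 in the female pools and 49408 against 86716 in the male pools. Upk3a made up most of this sum. Upk1a, Upk3a, Upk3b and Krt20 passed the filter. RNA B was brighter by 3.17-fold in the female and 3.28-fold in the male pools for Upk3b, by 2.67-fold and 2.33-fold for Upk1a, by 3.88-fold and 1.90-fold for Krt20 and by 1.56-fold and 1.71-fold for Upk3a, in the range of or below the folds of Sptssb, Degs2 and Fa2h. Of the 7 pan-epithelial markers 3 were dimmer in RNA A on both arrays, and their sum was 62604 against 90769 in the female and 80137 against 85875 in the male pools. Of the 4 basal cell markers 3 favoured RNA A on each array, with sums of 4492 against 3885 in the female and 4797 against 3812 in the male pools. No basal or pan-epithelial marker passed the filter. The part of these values in the ratios of Sptssb, Degs2, Fa2h and Sgms2 was not tested.

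Of the 7 genes of ureteric mesenchyme and smooth muscle 5 were dimmer in RNA A on both arrays and none passed the filter, with sums of 80877 against 101771 in the female and 77450 against 132894 in the male pools. Schwann cells express Fa2h, Ugt8a and Galc for myelin. The 10 Schwann cell and myelin markers, of which 9 were well above background, summed to 13033 against 16903 in the female pools and 21493 against 18550 in the male pools, so the sum was dimmer in RNA A on array 1 and brighter on array 2. Fa2h was dimmer in RNA A on both, and the part of Schwann cells in its ratio was not tested. By RNA in situ hybridisation, the study found strong Fa2h expression in S cells and intermediate cells of control ureters at fetal stages. It reported lower Fa2h levels in the mutant. By the same assay it placed Sptssb in S cells of controls and found it greatly reduced or lost in the mutant. The study's text on this assay does not name Degs2. None of the 5 adipocyte markers was well above background, and their sum stayed between 12.9 and 14.96.

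Markers of other tissues were measured as well. The 4 keratinocyte markers on the array, of which Krt2 was not well above background, summed to 7195 against 5894 in the female pools and 2071 against 2195 in the male pools. The 5 liver markers summed to 9940 against 8629 in the female and 3579 against 8496 in the male pools. The 6 nephron markers, with Umod, Slc12a1 and Nphs1 not well above background, summed to 238 against 381 in the female and 228 against 342 in the male pools. Lrp2 made up most of that sum, and Slc34a1, at signals of 6.20 against 30.8 and 4.20 against 37.2, was brighter in RNA B by 4.97-fold and 8.85-fold. The 4 collecting duct markers, with Avpr2 not well above background, summed to 872 against 588 in the female and 803 against 397 in the male pools. Fxyd4 made up most of it and passed the filter toward RNA A (1.70-fold and 2.94-fold), while Scnn1g had log2 ratios of −0.21 and −0.90. The part of these tissues in the members' values was not tested.

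The lists of other sphingolipid genes hold 71 genes outside the 37, of which 67 were on the array and 59 well above background. None of the 59 was called by limma at an adjusted p under 0.05, where 0.314% of all 21371 genes were called, and none reached an unadjusted p under 0.05. The share of all genes under that unadjusted p was not counted. None of the 67 passed the filter in either direction (0.157% of all genes toward RNA A, 0.231% toward RNA B). Genes with a large ratio in this comparison had been selected for the 37, which leaves fewer to be called here, so nothing is read from these counts. The mean log2 ratios of the 59 ran from −0.34 to 0.37 with a median of 0.02, and 8 were brighter and 11 dimmer in RNA A on both arrays. Smpd5, Enpp7 and Elovl3 were past 1.5-fold on both arrays in opposite directions, and none of these was well above background.

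By list, 10 of 12 other synthesis and breakdown enzymes, such as the sphingosine 1-phosphate phosphatase Sgpp2, were well above background, with a median of 0.04. All 13 genes of glycosphingolipid chain synthesis were so, with a median of 0.06. All 11 genes of lysosomal breakdown and its activators, such as the saposin precursor Psap, had a median of −0.01, and 3 of 4 transfer proteins, such as the ceramide carrier Col4a3bp, had one of 0.04. The receptors and transporters of sphingosine 1-phosphate had 7 of 9 above background, S1pr4 and S1pr5 being the others, with a median of −0.02. The genes supplying very long chain fatty acids had 10 of 11, with a median of −0.04, and the acylceramide genes of the skin barrier 5 of 7, with a median of 0.08. With 2 arrays, the test has 1 residual degree of freedom per gene before moderation, and a p that misses the threshold does not show that these genes did not differ.

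**Figure D4:**
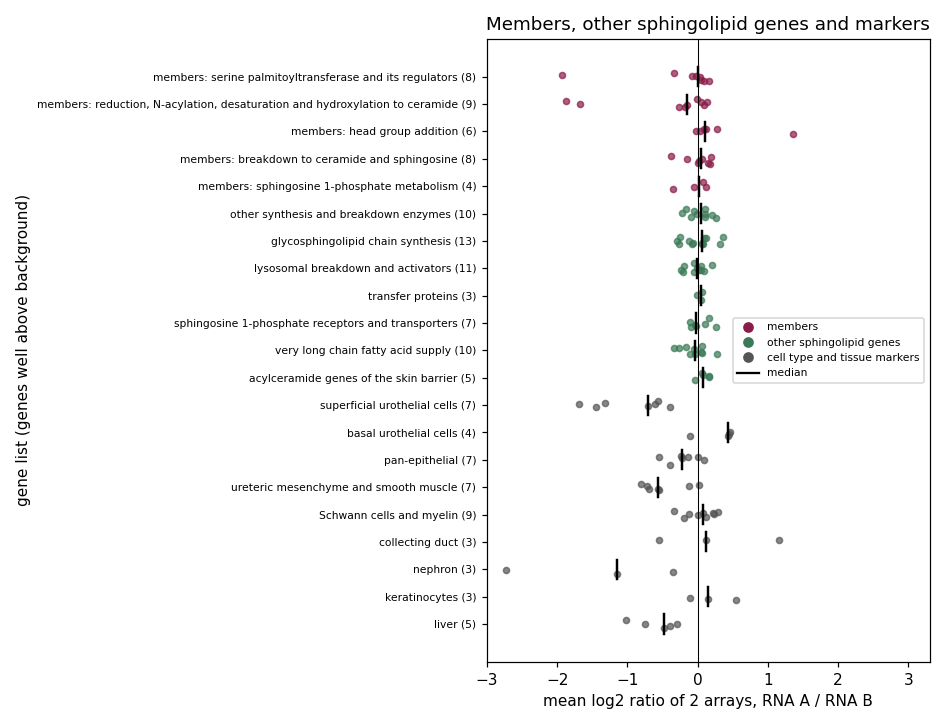
Mean log2 ratio of RNA A over RNA B over 2 arrays (x axis) for each gene well above background in the members' role groups, the other sphingolipid lists and the marker lists (y axis, number of genes in brackets), with a black bar at the list's median. All 59 other sphingolipid genes lie between −0.34 and 0.37, and the 7 S cell markers lie left of 0.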

How the data were processed

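Pooled ureter RNA was hybridised on 2 dual-colour Agilent arrays on 1 slide. Per the file headers, Agilent Feature Extraction 10.7.3.1 made the deposited intensities, background-subtracted and dye-normalised (linear and LOWESS). It set surrogates near background for 8.0% of the green and 15.2% of the red spots of array 1, which can compress ratios of dim probes. The deposited log10 ratio served only to check the dyes. The authors' table of signed fold values (median 1 on both arrays; direction given only by the sample titles, by which RNA A would be the mutant; centring not stated) correlated with RNA A over RNA B across probes at r = 0.997 (log2) and was an alternative. Control spots (17263 per array) and flagged spots (5705 and 5579) were dropped, and log2 processed signals averaged per probe. Genes carry the files' names and positions (mm9) and are represented by their brightest probe on average. Well above background means at least 0.5 of a probe's spots on both arrays in at least 1 RNA. limma 3.58.1 (lmFit with an intercept, eBayes, Benjamini-Hochberg at 0.05, R 4.3.3) was fitted to all 21371 such genes and read only for sphingolipid genes outside the list. Filter and limma were also run on simulated ratios with 200 genes changed, without a dye effect and with one as wide as measured. A minimum recovery was required only in the run without a dye effect. The simulation therefore does not show how well they perform on these arrays.

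The members, gene lists and tests were chosen with earlier results of these data known. Named with signals are members past 1.5-fold on both arrays and, by role, the 2 highest and 2 lowest mean ratios and the brightest member, with further members for context. Cers4, St3gal5, Smpd1 and Sphk1 are exceptions and are given by ratio only. Alternatives were normexp (offset 50) followed by loess, loess alone, median centring, the authors' table, the mean over probes, signal thresholds of 50, 200 or none, the scanner's background flag as threshold, 2-fold, 1.5-fold on the mean, all members, an intensity trend, no dim filter, and leaving out each array. The number of arrays limits the precision.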

Additional observations from a re-analysis of the deposited data

Results flagged for a closer look

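Of the 35 members well above background, 19 had opposite directions on the array of female pools and on that of male pools. This difference was not tested, and dye and sex cannot be told apart in it. Over all genes well above background, 39.0% had the same sign on both arrays.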

How the results depend on the processing

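Sptssb, Fa2h and Degs2 passed the filter toward RNA B under every alternative run, and no member was past the thresholds in opposite directions under any. The count of members toward RNA B lay between 3 and 4 when either array was left out, with Sptlc3 as the additional gene on array 2 alone. The count toward RNA A was 0, and became 1 (Sgms2) with normexp and loess, with a signal threshold of 50, with no signal threshold and with the scanner's background flag used instead. The mean log2 ratio of Sgms2 was 1.36 and fell to 0.91 with normexp and loess. Over the 5 alternatives for normalisation, values and probes, the mean ran from −1.95 to −1.90 for Sptssb, from −1.89 to −1.79 for Fa2h and from −1.69 to −1.65 for Degs2. The median over the members was 0.032, and lay between −0.076 and 0.021 when an array was left out, so its sign rests on array 1. The other sphingolipid genes had 0 limma calls, and 0 at an unadjusted p under 0.05, under every alternative run. The number of limma calls over all genes was 67, and 1 with normexp and loess, 33 with loess on the processed signals and 0 with no filter on dim probes. Leaving out an array leaves no residual degree of freedom and gave no test. Each array holds both RNAs and its ratio is the pair, so limma on the ratios is already a paired analysis. The causes of these shifts were not tested. Dim probes such as those of Sgms2, Acer1 and Acer2 limit what their ratios show.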
